A study of Homo sapiens with 2 samples.

Results

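The 48 genes described here build and control the machinery that separates chromosomes in mitosis: subunits of the kinetochore, proteins of the spindle assembly checkpoint, and the kinases, cyclins and spindle factors that act with them. They were taken by name, as all probe sets whose annotation gives one of these symbols alone. Of the 48, 46 had a gene value, out of 11272 genes with a value on the arrays. The cells were GFP-SAS, a form of the established human tongue squamous cell carcinoma line SAS named for green fluorescent protein. The anti-miR group received an antisense oligonucleotide of locked and plain DNA nucleotides directed at miR-361-3p, and the control group received an oligonucleotide of the same chemistry with no target. Both groups were given 25 nM, both were collected after 24 h, and each was measured on 1 array, so no value below has an error between cultures and no p-value is given.

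A kinetochore is the protein plate that forms on each centromere and holds the chromosome to spindle microtubules. Its inner layer sits on nucleosomes with the histone variant CENPA, and its outer layer binds the microtubule. The spindle assembly checkpoint reads unattached kinetochores and holds back the anaphase-promoting complex until every chromosome is attached. Most of these genes are transcribed in G2 and mitosis, and in a growing tumour cell culture they are read as genes of dividing cells. In an unsynchronised culture, fewer cells in mitosis and less RNA per cell cannot be told apart.

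The microRNA that the oligonucleotide was directed at is shown because it defines the comparison. The mature sequence is from RefSeq (GRCh38.p14, chrX:85903641-85903663, minus strand), and the capitals mark the seed, bases 2 to 8, which pairs with target RNAs. The level of this microRNA and target sites in the members were not analysed here.
hsa-miR-361-3p: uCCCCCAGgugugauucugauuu

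Values are log2 expression per probe set, made by the submitters with RMA, and a gene value is the mean over its retained probe sets, those at or over the median probe set on 1 array or both. All differences were taken as anti-miR minus control, and a gene is called higher or lower at 1.5-fold, a log2 difference of 0.58. Errors given as SD are taken over a gene's probe sets on these arrays, which can share probes and hold no variation between cultures. Over all genes with several retained probe sets this SD was 0.29, and over the members it was 0.17. The median gene differed by 0.13, so a member near that value stood where most genes stood. The poly-A spike controls also differed, by 0.32 ± 0.19 (SD, 12 probe sets), and their part in the results was not tested. The hybridization controls differed by 0.09 ± 0.10 (SD, 9 probe sets), GAPDH by -0.005 (1 probe set) and ACTB by -0.13 (3 probe sets). Of 9 squamous epithelial markers 4 had a value: KRT5, CDH1, EPCAM and SFN, with control values from 9.08 to 11.3. KRT14 and SOX2 had only dim probe sets. Of 23 markers of fibroblasts, leukocytes, endothelium and skeletal muscle, 7 had a value, at most 6.41 on either array, and PTPRC and COL1A1 had only dim probe sets.

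The members stood on both sides of their control values. Of the 46 with a value, 6 were called higher, against 8.23% of all genes, and 6 were called lower, against 14.2% of all genes. These counts are 13% of the members in each direction. At 2-fold 0 members were higher (1.23% of all genes) and 1 was lower (6.98% of all genes). The median member differed by 0.19, close to the median gene, with quartiles of -0.15 and 0.46. Above the median gene stood 24 members, and 22 stood below it. With the median gene subtracted, 3 members were at least 1.5-fold higher (4.43% of all genes) and 7 were lower (17.3% of all genes). None of these shares can be set against variation between cultures.

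**Figure D1:**
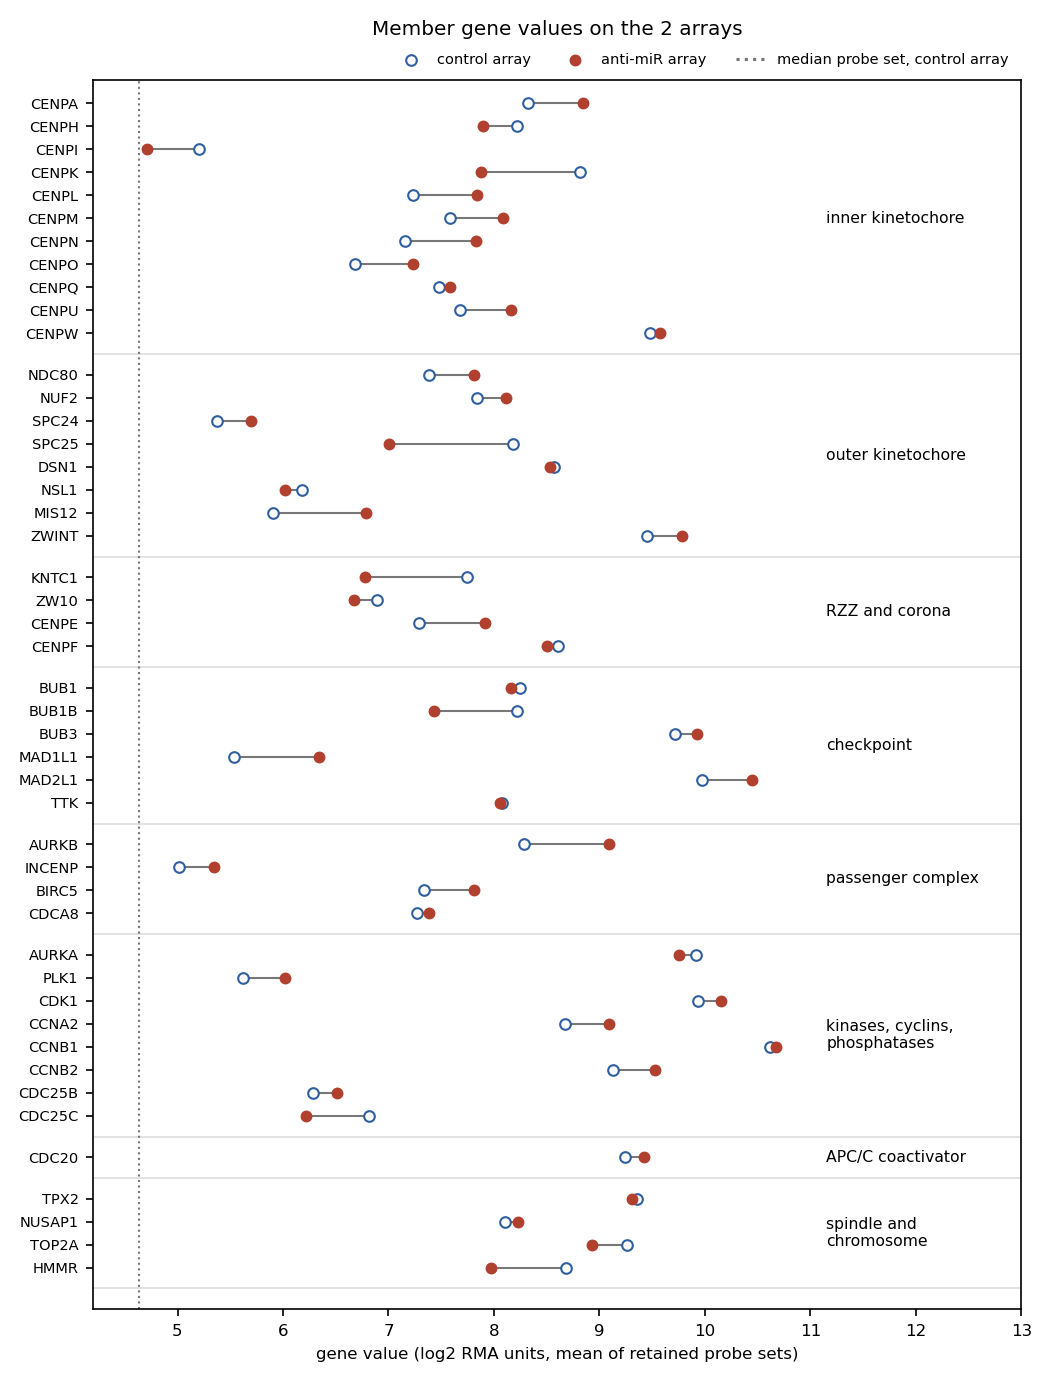
Gene values (log2 RMA units) of the 46 measured members on the control array (open circles) and the anti-miR array (filled circles), grouped by role, with the control array's median probe set as a dotted line. Within most groups some members lie to the right of their control value and others to the left, and the widest gap is that of SPC25, from 8.18 to 7.0.

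In the inner kinetochore, 6 of 11 measured members stood above the median gene. CENPA, the histone H3 variant that marks the centromere, read 8.85 against 8.33 in the control, a difference of 0.52 ± 0.07 (SD, 4 probe sets), short of 1.5-fold. All 4 of its probe sets differed upward, by 0.45 to 0.59. CENPC, which links CENPA nucleosomes to the outer kinetochore, had 2 probe sets, both under the array medians, and so has no value. The group's median difference over 11 measured genes was 0.48, with 2 genes called higher and 1 called lower. Over all genes 8.23% were called higher and 14.2% lower, so counts this small are not read as a group result.

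CENPL and CENPN form a pair that reads the CENPA nucleosome. CENPN was 1.60-fold higher, at 7.83 against 7.15, or 0.68 ± 0.12 in log2 units (SD, 6 probe sets). CENPL was 1.53-fold higher, at 7.84 against 7.23, or 0.61 ± 0.09 in log2 units (SD, 2 probe sets). Both subunits thus stood on the same side at nearly the same size. Each falls short of 1.5-fold once the median gene is subtracted, at 0.55 for CENPN and 0.48 for CENPL, and CENPN also does with the highest probe set alone. Both probe sets of CENPL are of a type that can also bind similar transcripts, with the suffix _x_at. The only probe sets of CENPH and DSN1 are of this type too, as are 5 of the 10 retained ones of BIRC5. So are some of those of CENPN, SPC24, MAD1L1, PLK1 and CDC25B. Other suffixes were not counted, so genes not named here are not shown to be free of such binding.

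The CENP-H, CENP-I, CENP-K and CENP-M complex, a central scaffold of the inner kinetochore, was split. CENPK was 1.91-fold lower, at 7.88 against 8.82 (1 probe set). CENPI differed by -0.49, with 2 probe sets at -0.50 and -0.49, and CENPH by -0.32 (1 probe set). CENPM was on the other side, at 8.08 against 7.58, a difference of 0.50 (1 probe set). The distance between CENPM and CENPK was 1.44 on the log2 scale. CENPI read only 4.71 on the anti-miR array, close to that array's median of 4.64, and it becomes a lower call, at -0.62, when the median gene is subtracted.

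The CENP-O class includes CENPU, which recruits PLK1 to the kinetochore. CENPO differed by 0.55 (7.23 against 6.68, 1 probe set) and CENPU by 0.48 ± 0.07 (SD over 2 probe sets), both short of 1.5-fold. CENPQ differed by 0.10 and stood at the median gene. Of the 2 subunits of this class outside the 48 genes, ITGB3BP differed by 0.17 and CENPP by -0.81, with an SD of 0.78 over 2 probe sets. CENPW, a histone-fold subunit that binds DNA, differed by 0.09 (9.58 against 9.48), while its partners CENPT, CENPS and CENPX differed by 0.25, 0.56 and 0.60, of which CENPX alone was past 1.5-fold.

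In the outer kinetochore the members of 1 complex parted most. The NDC80 complex is the rod of 4 proteins that grips the microtubule. NDC80 differed by 0.43 (7.81 against 7.38, 1 probe set), NUF2 by 0.27 (8.11 against 7.84, 1 probe set) and SPC24 by 0.32 ± 0.12 (5.69 against 5.37, SD over 5 probe sets). SPC25, which pairs with SPC24 at the inner end of the rod, was 2.27-fold lower, at 7.0 against 8.18 (1 probe set). SPC25 ranked 560 of 11272 genes by decrease and was the only one of the 46 members past 2-fold. On the anti-miR array its value was no higher than the brightest nonspecific control probe set (7.16), so the fold is not an exact size. The spread within the complex, 1.61 on the log2 scale, rests on this 1 probe set.

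The MIS12 complex joins the inner kinetochore to the NDC80 rod. MIS12 itself was 1.83-fold higher, the largest increase among the 46 members, at 6.78 against 5.91. Its 3 probe sets differed by 0.63, 0.97 and 1.02 (0.87 ± 0.21, mean and SD). DSN1 and NSL1, other subunits of the complex, differed by -0.03 (1 probe set) and -0.16 ± 0.23 (SD over 3 probe sets), so neither stood with MIS12. PMF1, the subunit outside the 48 genes, differed by 0.25. All control values of the MIS12 probe sets lay within the nonspecific range, which reached 6.87 on that array. On the anti-miR array only the brightest probe set, at 7.76, was above it (7.16). ZWINT, which binds the outer kinetochore and helps to bring in the RZZ complex, differed by 0.33 ± 0.17 (SD over 2 probe sets).

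**Figure D2:**
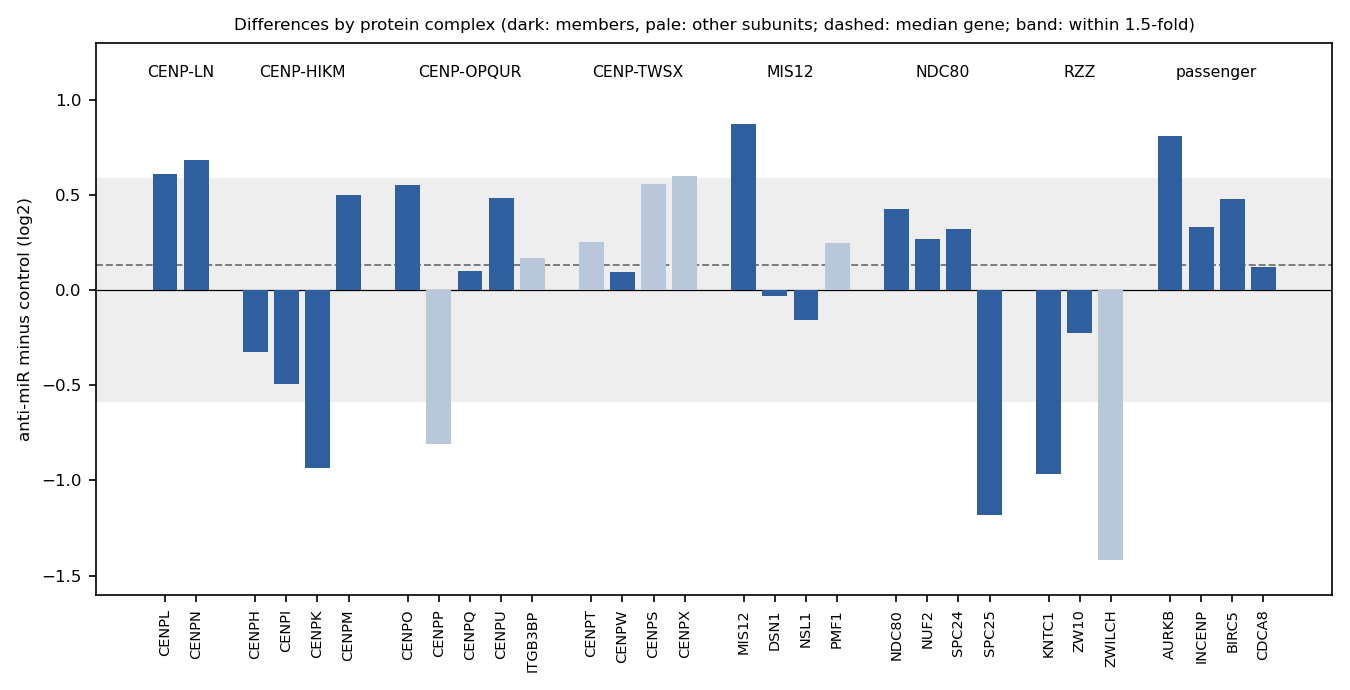
Log2 differences (anti-miR minus control) of the subunits of 8 kinetochore and centromere complexes, dark bars for the members and pale bars for other subunits, with the median gene dashed and the range within 1.5-fold shaded. The CENP-L and CENP-N bars are alike at 0.61 and 0.68, while SPC25 at -1.18 lies apart from NDC80, NUF2 and SPC24.

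The RZZ complex, made of KNTC1 (the ROD protein), ZW10 and ZWILCH, carries dynein and checkpoint proteins to unattached kinetochores. KNTC1 was 1.95-fold lower, at 6.78 against 7.75 (1 probe set). ZW10 differed by -0.22, at 6.67 against 6.90 (1 probe set). ZWILCH, a subunit outside the 48 genes, was 2.68-fold lower, at 6.05 against 7.47, or -1.42 ± 0.05 in log2 units (SD, 4 probe sets). All 3 subunits were therefore on the lower side, with ZW10 short of 1.5-fold. The anti-miR values of KNTC1, ZW10 and 3 of the 4 ZWILCH probe sets lay within the nonspecific range, so the folds of KNTC1 and ZWILCH are not exact sizes.

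CENPE and CENPF belong to the fibrous corona, the outermost layer of the kinetochore. CENPE, a kinesin motor that carries chromosomes to the spindle equator, was 1.54-fold higher, at 7.91 against 7.29 (1 probe set), and 0.49 above the median gene. CENPF differed by -0.10 ± 0.21 (SD over 2 probe sets), and its probe sets lay on both sides of 0, at -0.25 and 0.04.

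Among the checkpoint proteins, 1 was called higher, 1 lower, and 4 lay within 1.5-fold, beside shares of 8.23% higher and 14.2% lower over all genes. MAD1L1 (the MAD1 protein), the kinetochore platform for MAD2, was 1.75-fold higher, at 6.34 against 5.54. Its 3 probe sets differed by 0.69 to 0.87 (0.80 ± 0.10, mean and SD). All their values were within the nonspecific range on both arrays, which reached 7.16 (anti-miR) and 6.87 (control). The fold of MAD1L1 is therefore not an exact size. MAD2L1 (the MAD2 protein), its partner and an inhibitor of CDC20, differed by 0.47 ± 0.08 (SD over 3 probe sets), at 10.44 against 9.97. The remaining MAD2L1 probe set was dim, at 2.84 on the anti-miR array against 3.06, and was not retained.

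BUB1B (the BUBR1 protein), which binds CDC20 together with MAD2 and BUB3, was 1.73-fold lower, at 7.43 against 8.22 (1 probe set). BUB1, the kinase that BUB1B resembles, differed by -0.08, at 8.17 against 8.25 (1 probe set). BUB3, which anchors both to the kinetochore, differed by 0.20 ± 0.08 (SD over 3 probe sets). TTK (the MPS1 kinase), which starts the checkpoint signal, differed by -0.02, at 8.05 against 8.08 (1 probe set). The checkpoint kinases BUB1 and TTK were therefore close to 0, or -0.21 and -0.15 once the median gene is subtracted.

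The chromosomal passenger complex corrects wrong attachments through the kinase AURKB. Its 4 genes were all above 0, as were 62.3% of all genes, with a median of 0.41. AURKB was 1.75-fold higher, at 9.09 against 8.28 (1 probe set), with both values above the nonspecific range. BIRC5 (survivin), which brings the complex to the centromere, differed by 0.48 ± 0.31 (SD over 10 retained probe sets). INCENP, the scaffold, differed by 0.33 ± 0.07 (SD over 2 probe sets) at low values of 5.34 against 5.01. CDCA8 (borealin) differed by 0.12 ± 0.20 (SD over 2 probe sets), at the level of the median gene. AURKB alone of the 4 passed 1.5-fold, beside 8.23% of all genes called higher.

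The entry into mitosis is driven by CDK1 with cyclins A and B. CDK1 differed by 0.23 ± 0.03 (SD over 2 probe sets), at 10.16 against 9.93. CCNB1 differed by 0.06 (10.67 against 10.61, 1 probe set) and CCNB2 by 0.41 (9.53 against 9.13, 1 probe set). CCNA2 differed by 0.42 ± 0.05 (SD over 2 probe sets), at 9.09 against 8.67. None of these 4 reached 1.5-fold, and CCNB1 lay below the median gene. CCNA2 and CCNB2 lay above the upper quartile of all genes, 0.33.

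The CDC25 phosphatases switch CDK1 on. CDC25C was 1.51-fold lower, at 6.22 against 6.81, with probe sets at -0.63 and -0.55. It is the member nearest to the threshold among the 12 called ones, it falls within 1.5-fold at -0.55 with the highest probe set or with a 75th percentile filter, and its anti-miR values lay within the nonspecific range. CDC25B differed by 0.23 ± 0.11 (SD over 5 probe sets), so the phosphatases stood on opposite sides of 0.

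AURKA and PLK1 act at the spindle poles and across mitosis. AURKA differed by -0.16, at 9.76 against 9.92 (1 probe set), in contrast to 0.81 for AURKB. PLK1 differed by 0.39 ± 0.16 (SD over 3 probe sets), at 6.02 against 5.62, and its values lay within the nonspecific range on both arrays. CDC20, the coactivator that turns on the anaphase-promoting complex, differed by 0.18 ± 0.07 (SD over 2 probe sets), at 9.43 against 9.24. PTTG1 (securin), which CDC20 marks for destruction, has no value, because both of its 2 probe sets also name other genes.

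Of the spindle and chromosome factors, 1 was called lower and 0 higher, beside shares of 14.2% lower and 8.23% higher over all genes. HMMR, a microtubule-binding protein of the spindle poles and a receptor for hyaluronan, was 1.63-fold lower, at 7.98 against 8.68. Its 4 probe sets differed by -0.80 to -0.51 (-0.71 ± 0.13, mean and SD), and all anti-miR values were above the nonspecific range. HMMR is thus the lower call with the most probe sets behind it. TOP2A, the topoisomerase that untangles sister chromosomes, differed by -0.33 ± 0.10 (SD over 3 probe sets), at 8.93 against 9.27. TPX2, the activator of AURKA, differed by -0.05 (1 probe set), and NUSAP1, a microtubule-bundling protein, by 0.12 ± 0.09 (SD over 3 probe sets).

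Agreement between probe sets could be read for 25 members with at least 2 retained probe sets. In 22 of them all probe sets differed in 1 direction, and in CENPF, NSL1 and CDCA8 they did not. Of the 12 called members, 6 rested on 1 probe set, namely CENPK, SPC25, KNTC1, CENPE, BUB1B and AURKB. In 5 of the 12, all probe sets lay within the nonspecific range on the dimmer array (SPC25, MIS12, KNTC1, MAD1L1 and CDC25C), and their folds are not exact sizes. Those of MAD1L1 lay within the nonspecific range on both arrays. The retained probe sets of CENPK, CENPL, CENPE, BUB1B, AURKB and HMMR were all above it, as were 5 of the 6 of CENPN.

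**Figure D3:**
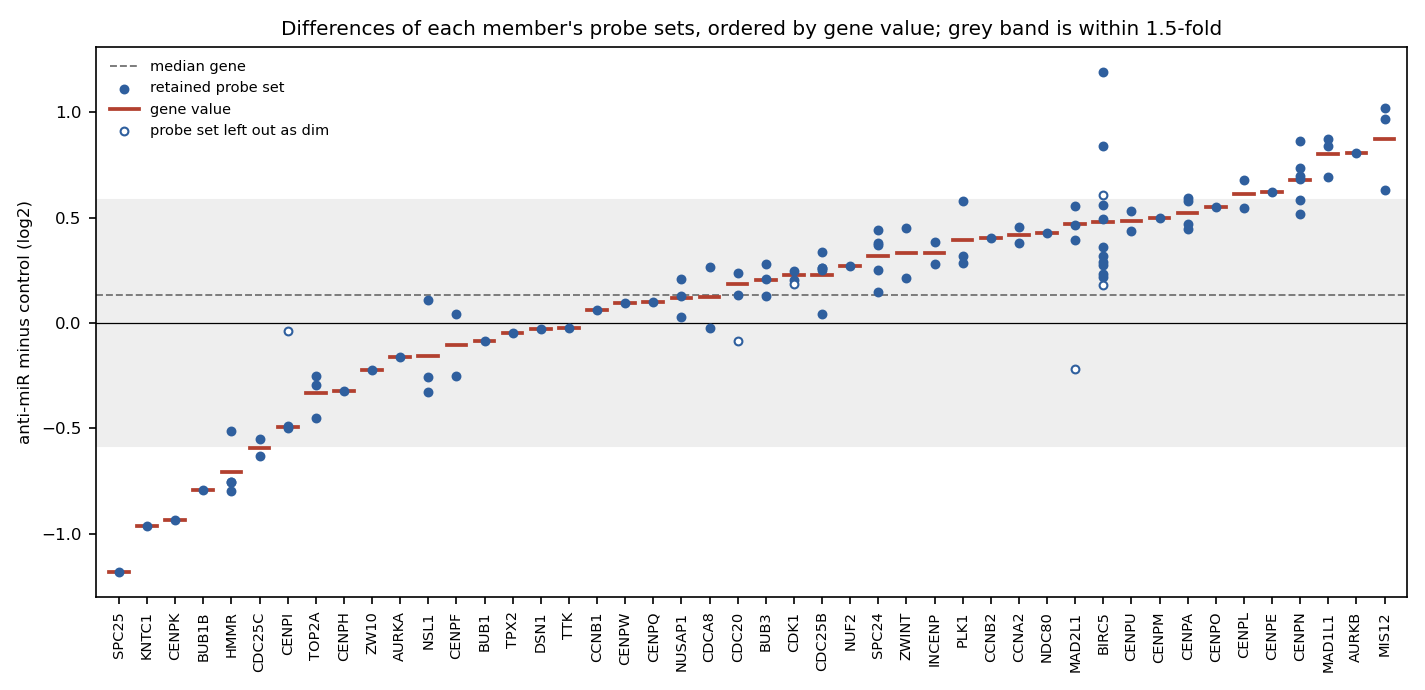
Log2 difference (anti-miR minus control) of each probe set of the 46 measured members, ordered by gene value (bars); filled points are retained probe sets, open points are dim ones left out of the gene value, the dashed line is the median gene at 0.13 and the shaded band is within 1.5-fold. All points of MIS12 and MAD1L1 lie above the shaded band, while the retained points of BIRC5 range from 0.22 to 1.19.

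Gene length moved with the differences. The genomic span, from the start to the end of the gene in RefSeq, had a median of 28.9 kb over the members and 27.6 kb over all genes. Across the 46 members Spearman's rho between span and difference was -0.43, and across 11264 genes it was -0.49. These are descriptions across genes of the same arrays. Without MAD1L1 (417 kb) and CENPW (143 kb), the longest members, rho was -0.51 over 44 genes. MAD1L1 was a member called higher, and no genes were left out of the rho over all genes. The -0.51 therefore cannot be set beside the -0.49.

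All 6 lower members were longer than the median gene, from SPC25 at 28.9 kb to KNTC1 at 99.1 kb, with a median of 56.6 kb. The higher members ran from MIS12 at 4.44 kb and AURKB at 5.85 kb to MAD1L1 at 417 kb, with a median of 25.6 kb. Of 27 members under 30 kb, 4 were called higher and 1 lower, and their median difference was 0.33. All genes under 30 kb had a median of 0.24, with 12.4% called higher and 3.18% lower. Of 19 longer members, 2 were called higher and 5 lower, with a median of -0.08, beside a median of -0.12 and shares of 3.51% and 26.5% for all longer genes. The split at 30 kb was chosen after the values were seen. CENPE (92.5 kb) and MAD1L1 are the long members on the higher side, and the part of length in the results was not tested.

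**Figure D4:**
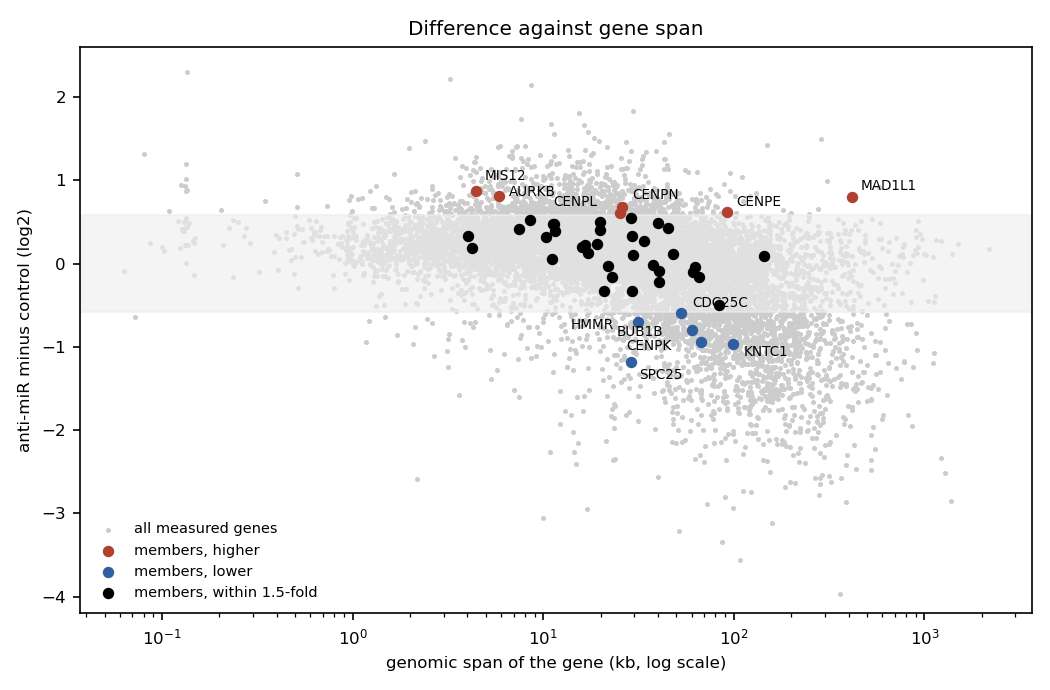
Log2 difference (anti-miR minus control) against genomic span (kb, log axis) for all measured genes (grey) and the members (coloured by call), with the range within 1.5-fold shaded. The lower members lie at 28.9 kb and above, and MAD1L1 stands apart as a long gene on the higher side.

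The promoters of such genes are known for a pair of short elements. The cell cycle genes homology region (CHR) is bound by the MuvB core with the DREAM repressor in resting cells and with MYBL2 and FOXM1 in G2, and the CCAAT box is bound by NF-Y. RefSeq promoter windows (GRCh38.p14, 250 bases before to 50 after a start) were given for 39 of the 48 members, in 50 windows. The CHR letters TTTGAA or TTCGAA, on either strand, were found in 56% of the members' windows and in 16.4% of all 35116 windows. The CCAAT letters, on either strand, were found in 74% and 34.6%, and both kinds in 48% and 6.38%. A match of letters is a description and not a bound site. Counted by gene instead, with letters in any of its windows, the CHR letters were found in 1 of 5 higher members and 4 of 5 lower members. They were found in 19 of 27 members within 1.5-fold. The CCAAT letters were found in 3 of 5, 4 of 5 and 21 of 27. Counted the same way, 19.5% of all 27305 genes with a window held the CHR letters and 39.7% the CCAAT letters.

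The 100 bases before the first listed start are shown for 3 members called higher (CENPN, AURKB, MIS12) and 3 called lower (SPC25, BUB1B, HMMR), to let promoters of both sides be compared. Capitals mark the CHR and CCAAT letters on either strand, including copies that overlap. The coordinates on GRCh38.p14 are chr16:81007114-81007213 (plus strand) for CENPN, chr17:8210226-8210325 (minus strand) for AURKB, chr17:5486274-5486373 (plus strand) for MIS12, chr2:168890431-168890530 (minus strand) for SPC25, chr15:40160969-40161068 (plus strand) for BUB1B and chr5:163460532-163460631 (plus strand) for HMMR. AURKB and MIS12 have 2 listed windows each.
CENPN: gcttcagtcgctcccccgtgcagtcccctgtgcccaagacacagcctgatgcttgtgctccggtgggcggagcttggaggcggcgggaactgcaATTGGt
AURKB: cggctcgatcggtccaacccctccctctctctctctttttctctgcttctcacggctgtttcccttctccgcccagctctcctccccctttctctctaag
MIS12: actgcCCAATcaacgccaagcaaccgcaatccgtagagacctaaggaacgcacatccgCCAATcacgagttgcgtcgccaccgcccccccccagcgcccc
SPC25: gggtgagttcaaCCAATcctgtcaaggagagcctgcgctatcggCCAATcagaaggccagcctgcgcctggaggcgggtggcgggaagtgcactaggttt
BUB1B: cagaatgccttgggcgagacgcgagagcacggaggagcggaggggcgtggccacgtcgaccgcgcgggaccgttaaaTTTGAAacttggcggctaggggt
HMMR: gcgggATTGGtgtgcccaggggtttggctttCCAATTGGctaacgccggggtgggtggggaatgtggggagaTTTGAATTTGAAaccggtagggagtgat

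These stretches show that CCAAT letters stand before both CENPN and MIS12, called higher, and SPC25 and HMMR, called lower. HMMR holds the CHR letters at 28 and at 22 bases before the start and BUB1B at 23 bases, while the printed AURKB stretch holds neither kind. The full windows of CENPN, called higher, and SPC25, called lower, hold CHR letters too, though not within the printed stretches. AURKB likewise holds CCAAT letters elsewhere in its 2 windows. Some genes for CHR-binding proteins were also measured, and those given here were picked after their values were seen. FOXM1 differed by -0.44 and MYBL2 by 0.25, both short of 1.5-fold. Of the MuvB core, LIN37 was 2.66-fold higher, at 5.49 against 4.08 (1 probe set). Both values lay within the nonspecific range, and the control value was under that array's median of 4.63. The probe set was thus retained through the anti-miR array alone, and the fold is not an exact size. LIN52 was 1.61-fold lower (-0.69 ± 0.49, SD over 2 probe sets, anti-miR values within the nonspecific range). LIN9, LIN54 and RBBP4 differed by -0.32, -0.20 and -0.51.

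Other genes of the pathway came from 8 lists, with 175 of 178 genes measured. Of these 175 genes, 15 were called higher (8.57%) and 35 lower (20%), with a median difference of 0.11. Over all genes the shares were 8.23% and 14.2% and the median was 0.13, and the list counts below stand beside these shares. Among 31 other kinetochore and centromere genes, 3 were higher and 6 lower. SKA1, which tracks microtubule ends with the NDC80 complex, was 2.12-fold higher (1.08 ± 0.23, SD over 2 probe sets). The microtubule plus-end proteins CLASP1 and CLIP1 were 3.06-fold and 2.84-fold lower, with spans of 312 kb and 151 kb.

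Condensin and cohesin, the rings that fold chromosomes and hold sisters together, had the largest share of lower genes of the 8 lists, 8 of 21 (38.1%), with 1 higher and a median of -0.30. The lower share was 14.2% over all genes and 26.5% over all genes of 30 kb or more. ESCO2, which acetylates cohesin, was 3.65-fold lower (1 probe set), the cohesin subunit STAG1 3.39-fold lower, the loader NIPBL 2.62-fold lower and the condensin II subunit NCAPG2 2.59-fold lower. The median span of this list was 48.6 kb, and the part of length in its count was not tested. The cohesin ring subunits SMC1A, SMC3 and RAD21 lay within 1.5-fold, at -0.30, 0.31 and -0.25.

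The APC/C and mitotic exit list had 0 higher and 3 lower genes of 23, among them ANAPC10, 2.99-fold lower (1 probe set), PPP2R5A, 2.30-fold lower, and ANAPC1, 1.71-fold lower. Of 29 CDK1 regulators and mitotic transcription factors, 2 were higher and 6 lower. MNAT1, the assembly factor of the CDK-activating kinase, was 5.28-fold lower (5.23 against 7.63, 1 probe set), and BORA, which helps AURKA to activate PLK1, was 3.44-fold lower (-1.78 ± 0.32, SD over 3 probe sets). RBL2 (p130), a pocket protein of the DREAM repressor, was 2.25-fold lower (-1.17 ± 0.15, SD over 3 probe sets). The anti-miR values of MNAT1, BORA, RBL2, ANAPC10, PPP2R5A, CLASP1, CLIP1, ESCO2, STAG1 and NIPBL lay within the nonspecific range, as did the control values of SKA1, so these folds are not exact sizes.

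Of 29 mitotic spindle and midbody genes, 3 were higher and 5 lower. CEP192, a scaffold of the centrosome, was 2.33-fold lower (1 probe set), ECT2, the exchange factor that starts cytokinesis, 2.04-fold lower (-1.03 ± 0.23, SD over 2 probe sets), CIT 1.83-fold lower (1 probe set) and TACC1 2.01-fold lower, with 8 probe sets from -1.64 to 0.11. Of 13 measured mitotic kinesins, 2 were higher and 4 lower, and the median was 0.20. KIF20A differed by 1.02 and KIF23 by 0.85, while KIF2A was 2.73-fold and KIF20B 2.57-fold lower. Anti-miR values of CEP192, CIT, TACC1, KIF2A and KIF20B lay within the nonspecific range. Replication licensing had 4 higher and 3 lower of 23 genes, with GINS3 2.44-fold, ORC6 1.88-fold and CDT1 1.73-fold higher. MCM4, a subunit of the replicative helicase, was 2.39-fold lower (-1.26 ± 1.04, SD over 4 probe sets), with probe sets far apart in size. The 6 proliferation markers were all above 0, as were 62.3% of all genes, and within 1.5-fold, with MKI67 (Ki-67) at 0.49 and PCNA at 0.26. The share of called genes thus lay between 0% and 17.4% higher and between 0% and 38.1% lower over these lists.

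**Figure D5:**
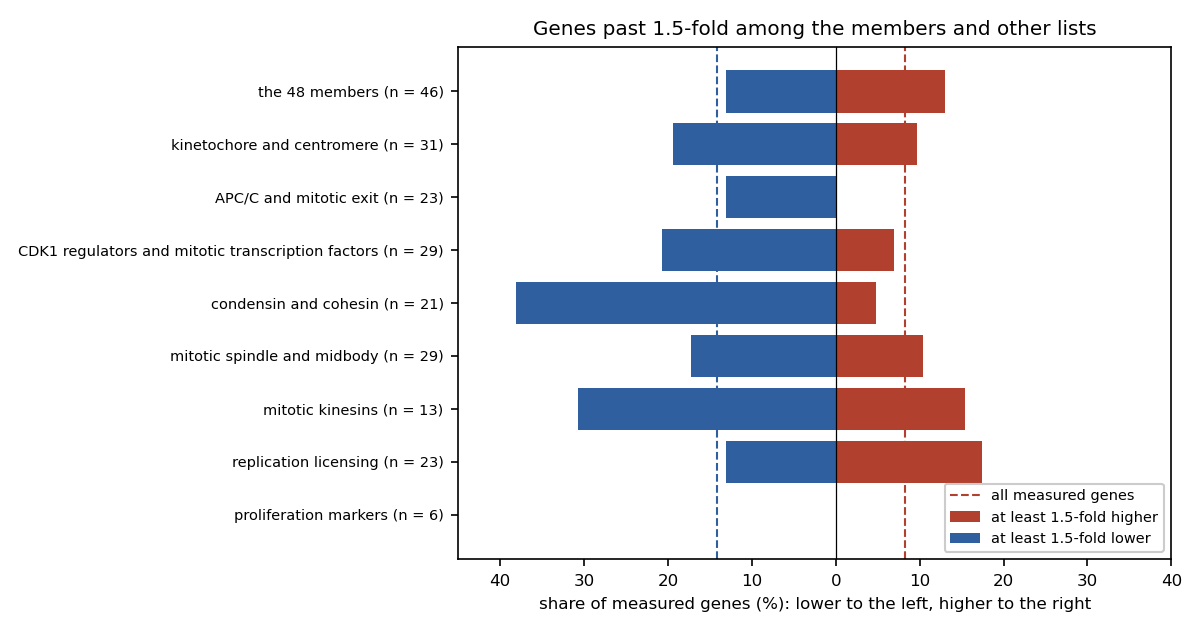
Share of measured genes at least 1.5-fold lower (left) and higher (right) on the anti-miR array among the members and 8 other lists, with the shares over all genes, 14.2% and 8.23%, as dashed lines. The members have 13% on each side, and the condensin and cohesin list has the longest bar on the lower side at 38.1%.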

How the data were processed

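The authors deposited log2 values, 1 for each probe set and array; per the submitters' processing notes they came from RMA. RMA corrects background, makes array distributions alike and summarises probes. Neither its version nor which arrays entered it is given in the sources used here. Per the labels, 10 ng of total RNA was labelled for each array.

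Of 49386 probe sets, 45259 had 1 gene symbol in the platform annotation, 1327 had several and 2800 none. Of the 45253 that were not array controls, 45172 were matched to RefSeq by Entrez ID. The 48 members had 109 probe sets, of which 101 were retained. With 1 array a group no test across samples could be made, and it is this number of arrays that sets the precision.

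The members, gene lists and alternatives were chosen with earlier results of these data known. The rule was to give values on both arrays for members past 1.5-fold, for members whose probe sets disagree in direction with 1 past 1.5-fold, and for the defining members of each group, and to name from each other list up to 4 genes past 1.5-fold with the largest difference. FOXM1, MYBL2, the MuvB genes, the cohesin ring genes, the other subunits of complexes, ENSA, PCNA, MKI67, the 30 kb split and the 6 promoters shown were picked after their values were seen. The removal of MAD1L1 and CENPW from rho was also chosen after the values were seen.

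Alternatives were no filter, a 75th percentile filter, the highest or the median probe set, subtracting the median gene, subtracting a lowess trend with a fraction of 0.3, calling at 2-fold, and using plain _at probe sets alone. The code for gene values was run on simulated data. The planted differences were larger than the call threshold, and probe sets varied less than on these arrays. That run checks the code and not the calls. Scripts ran in Python 3.11.15 with pandas 2.3.3, numpy 2.4.6, statsmodels 0.14.6 (lowess), scipy 1.17.1 (rank correlation) and matplotlib 3.10.9.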

Additional observations from a re-analysis of the deposited data

Results flagged for a closer look

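A BIRC5 probe set left out of the gene value as dim was higher on the anti-miR array by 0.61 (3.84 against 3.24). Another BIRC5 probe set left out as dim differed by 0.18 (4.57 against 4.39). All of these values lay under the array medians. The poly-A spike controls, which are not in the gene comparison, were higher by 0.32 on average over 12 probe sets. The hybridization controls were higher by 0.09 on average over 9 probe sets.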

How the results depend on the processing

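No array could be left out. No paired analysis was possible because there was 1 sample in each group. Against 6 members higher and 6 lower, centring on the median gene and subtracting a lowess trend each gave 3 higher and 7 lower. CENPL, CENPN and CENPE were the calls lost and CENPI the one gained. The shares over all genes were 4.43% and 17.3% when centred, and 4.85% and 16.8% with the lowess trend. Calling at 2-fold left 0 members higher and 1 lower, beside 1.23% and 6.98% of all genes. With plain _at probe sets, which measured 9 members, 1 was higher and 1 lower, with fewer genes measured. Of all genes, 9.3% were higher and 14.9% lower in that setting. No filter, the 75th percentile filter, the highest probe set and the median of probe sets kept both counts at 5 or 6. The shares over all genes moved more. They were 4.4% higher and 7.37% lower with no filter, where 47 members were measured. With the 75th percentile filter, which measured 44 members, they were 12.2% and 18.8%. With the highest probe set they were 9.56% and 14.5%, and with the median 8.44% and 14.2%. The median difference of the members ranged from 0.06 to 0.42 over the settings, the latter with plain _at probe sets alone. Of the 12 called members, 8 were past 1.5-fold in every setting that measured them, and none of the 12 reversed. Calling at 2-fold is not counted among these settings. CENPK, SPC25, KNTC1, CENPE, BUB1B and AURKB each have 1 probe set. The filters and the choice of probe set could not change their values. CDC25C fell within 1.5-fold with the 75th percentile filter and with the highest probe set, and CENPN with the highest probe set.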

Other observations

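Probe sets of 1 gene disagreed in size at some genes named here. BIRC5 had the widest range among the members: its 10 retained probe sets differed by 0.22 to 1.19, with 2 of them past 1.5-fold (6.69 against 5.50, and 8.13 against 7.30) and the brightest one at 0.50. The values 6.69 and 5.50 lay within the nonspecific range on both arrays. Among the other lists, the 4 probe sets of the licensing helicase subunit MCM4 ranged from -2.35 to -0.27, and the 7 of ENSA, an inhibitor of protein phosphatase 2A in mitosis, had an SD of 0.89. Which transcripts these probe sets read was not tested.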
